A study of Mus musculus with 3 samples.

Results

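The transcripts of 50 genes of mitosis were followed across 3 sorted populations of mouse bone marrow cells. The 50 genes were taken by name as mitotic cyclins and kinases, spindle checkpoint, centromere, condensin and cytokinesis genes, with the kinesin motors left out apart from Cenpe, and all 50 were found among the 23393 named genes of the table. A filter on low values, which asked for a mean of 50 or more across libraries, kept 11951 genes and lost no member, since the lowest member mean was 524, for the phosphatase gene Cdc25c. A level here is the normalized count of a gene as deposited by the authors.

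The cells came from C57BL/6 mice and were LSK cells, marrow cells that lack lineage markers and carry Sca-1 and c-Kit, among which stem cells and early progenitors are found. GFP+ HSCs were hematopoietic stem cells gated as CD48-negative and CD150-positive with a GFP reporter for Map17 switched on. GFP- HSCs came from the same gate with the reporter off. MPPs, the multipotent progenitors downstream of stem cells, were CD48-positive, CD150-negative and also GFP-. There was 1 library for each population. There were thus no replicates, the spread between repeated sorts is not known, and no test was made. The sources used here do not state the age and sex of the mice, the number of animals pooled or the construct behind the reporter.

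The levels of all genes summed to 25311805 in GFP+ HSCs, 25375047 in GFP- HSCs and 26689660 in MPPs as scaled by the authors, which leaves the depth of sequencing unknown and allows no counting interval. The gate genes went the way of the sort. Slamf1, which encodes CD150, stood at 2219 in GFP+ HSCs, 2144 in GFP- HSCs and 17 in MPPs, and Cd48 stood at 64 in GFP+ HSCs, 168 in GFP- HSCs and 7744 in MPPs. Pdzk1ip1, the gene of Map17, stood at 5659 in GFP+ HSCs, 3673 in GFP- HSCs and 290 in MPPs. Of the markers of mature cells, 8 neutrophil genes summed to 1564 in GFP+ HSCs, 797 in GFP- HSCs and 724 in MPPs, 6 B cell genes to 903 in GFP+ HSCs, 769 in GFP- HSCs and 1341 in MPPs and 6 T cell genes to 101 in GFP+ HSCs, 95 in GFP- HSCs and 326 in MPPs. Most of the B cell sums was Cd79b, at 870 in GFP+ HSCs, 749 in GFP- HSCs and 1109 in MPPs, and most of the T cell sums was Cd4, at 98 in GFP+ HSCs, 91 in GFP- HSCs and 260 in MPPs. The B cell genes Ms4a1 and Pax5 and the T cell genes Cd3e and Cd3g were listed at 0 in both HSC libraries. The 7 of 8 erythroblast genes found in the table summed to 3199 in GFP+ HSCs, 5476 in GFP- HSCs and 5615 in MPPs, and 6 megakaryocyte genes, of which Gp6 was listed at 0 in both HSC libraries, summed to 5479 in GFP+ HSCs, 9406 in GFP- HSCs and 1870 in MPPs. In the erythroblast list the widest gap between the HSC fractions was in Car1, at 459 in GFP+ HSCs, 1791 in GFP- HSCs and 1554 in MPPs, while Slc4a1 was higher in GFP+ than in GFP- HSCs, and the megakaryocyte sums were mostly Itga2b, at 4095 in GFP+ HSCs, 7032 in GFP- HSCs and 1263 in MPPs. Genes of the progenitor side of the gate also differed between the HSC fractions. Cd34 stood at 6240 in GFP+ HSCs, 10319 in GFP- HSCs and 42578 in MPPs, and Flt3 stood at 829 in GFP+ HSCs, 1253 in GFP- HSCs and 19467 in MPPs. Procr, a stem cell marker, stood at 3776 in GFP+ HSCs, 2807 in GFP- HSCs and 634 in MPPs. The erythroblast and megakaryocyte sums and Cd34, Flt3 and Cd48 were thus lower in GFP+ than in GFP- HSCs, as the mitotic genes were, and Procr was higher; their part in the mitotic difference was not tested.

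Mitosis is driven by Cdk1 bound to cyclins A and B, is held before anaphase by the spindle checkpoint until every kinetochore is attached, and ends when the anaphase-promoting complex (APC/C) destroys securin and cyclin B. Most genes that act in it are transcribed in a wave late in the cell cycle and are shut off in resting cells. Their promoters often hold a CHR, the cell cycle genes homology region bound by the MuvB core of the DREAM and B-Myb complexes, and CCAAT boxes bound by the factor NF-Y. Adult hematopoietic stem cells are known as a largely quiescent population, whereas multipotent progenitors divide often.

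The promoters of the members are shown first, because the genes that stood apart in the levels can be set beside them. RefSeq windows from 250 bases before to 50 bases after each start site (GRCm38.p6) were found for 41 of the 50 members. Ccna2, Aurkb, Cdc25c, Cdca2, Incenp, Spc24, Smc4, Foxm1 and Tpx2 had no entry. The stretches below run 5′ to 3′ on the gene's own strand, from 150 bases before to 30 bases after the first listed start site. Capitals mark the CHR, searched as TTTGAA or TTCAAA so as to cover both strands, and the CCAAT box, searched as CCAAT or ATTGG. A CHR and a CCAAT box can share an end letter at most. The 6 stretches that come first are chosen examples of genes at least 2-fold lower in either HSC fraction than in MPPs, not the 6 lowest. The 3 that follow belong to the members that differed least between the HSC fractions. All of the first 6 hold a CHR, but 13 of the 41 members with a window hold none. Bub1, Nek2 and Ncaph are among those 13 and were also at least 2-fold lower in either HSC fraction than in MPPs. The printed stretches thus do not show how motif and ratio relate.
Cdk1, chr10:69352883-69353062, minus strand: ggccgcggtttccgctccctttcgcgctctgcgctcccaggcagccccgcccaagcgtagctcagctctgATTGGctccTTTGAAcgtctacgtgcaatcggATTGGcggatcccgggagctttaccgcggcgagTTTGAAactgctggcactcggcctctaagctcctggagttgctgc
Espl1, chr15:102296143-102296322, plus strand: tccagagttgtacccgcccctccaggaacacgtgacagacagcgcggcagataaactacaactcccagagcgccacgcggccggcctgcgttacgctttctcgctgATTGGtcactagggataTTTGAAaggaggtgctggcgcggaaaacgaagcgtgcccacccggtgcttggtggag
Cdca5, chr19:6084947-6085126, plus strand: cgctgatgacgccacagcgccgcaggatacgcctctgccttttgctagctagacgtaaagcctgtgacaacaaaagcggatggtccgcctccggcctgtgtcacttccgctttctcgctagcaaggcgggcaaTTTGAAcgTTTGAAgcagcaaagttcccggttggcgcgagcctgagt
Ccnb2, chr9:70421525-70421704, minus strand: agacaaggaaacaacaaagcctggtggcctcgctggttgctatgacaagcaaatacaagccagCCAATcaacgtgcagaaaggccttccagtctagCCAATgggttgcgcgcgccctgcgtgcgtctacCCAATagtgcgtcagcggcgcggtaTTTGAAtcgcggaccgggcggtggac
Ube2c, chr2:164769779-164769958, plus strand: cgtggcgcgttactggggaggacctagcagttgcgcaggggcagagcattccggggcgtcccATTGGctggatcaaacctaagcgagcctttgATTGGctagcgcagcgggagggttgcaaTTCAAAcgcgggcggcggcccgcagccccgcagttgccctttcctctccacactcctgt
Cdc20, chr4:118437314-118437493, minus strand: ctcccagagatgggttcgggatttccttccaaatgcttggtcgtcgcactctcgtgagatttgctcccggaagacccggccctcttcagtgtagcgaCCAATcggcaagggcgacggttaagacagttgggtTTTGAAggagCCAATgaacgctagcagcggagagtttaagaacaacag
Pttg1, chr11:43425952-43426131, minus strand: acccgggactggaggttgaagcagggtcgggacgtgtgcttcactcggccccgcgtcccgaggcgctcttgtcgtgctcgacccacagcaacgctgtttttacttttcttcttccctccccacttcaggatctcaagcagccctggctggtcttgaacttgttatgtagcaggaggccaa
Cdc25b, chr2:131186798-131186977, plus strand: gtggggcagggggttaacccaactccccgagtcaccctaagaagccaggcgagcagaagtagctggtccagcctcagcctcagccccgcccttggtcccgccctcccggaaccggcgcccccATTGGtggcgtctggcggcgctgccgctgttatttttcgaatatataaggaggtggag
Bub3, chr7:131560220-131560399, plus strand: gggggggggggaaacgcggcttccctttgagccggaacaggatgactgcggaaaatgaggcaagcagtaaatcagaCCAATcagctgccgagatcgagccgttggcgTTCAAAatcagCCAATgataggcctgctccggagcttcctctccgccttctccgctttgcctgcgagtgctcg

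Of the 41 members with a window, 28 held at least 1 CHR (68.3%), 32 held at least 1 CCAAT box (78.0%), 25 held both (61.0%) and 6 held neither. Over all 27025 genes of the promoter table the shares were 20.2% for the CHR, 41.1% for the CCAAT box and 8.97% for both. Among the 8994 of those genes that passed the level filter of 50, the shares were 14.1%, 43.1% and 6.96%. In 26 of the 28 members with a CHR, at least 1 began no more than 50 bases before the start site or after it. The same position rule was not counted over all genes, so nothing is read from that number. CCAAT boxes on the same strand spaced 28 to 36 bases apart, a range chosen after the positions were seen, occurred in 10 of the 41 members (24.4%) and in 1.78% of all genes of the promoter table and 3.22% of those past the level filter. That range was fitted to the members, so nothing is read from the contrast. The 6 members with neither motif were Birc5, Mad2l1, Ncaph, Nuf2, Plk4 and Pttg1. In 33 of the 41 members a listed start site lay within 100 bases of the 5′ end of the GENCODE gene. It lay farther off in Bub3, Cdca3, Cdca5, Cdca8, Cenpa, Mad2l1, Ncapd2 and Pttg1. The start site lay 270 bases inside the gene for Pttg1, 629 for Cdca3 and 2394 for Cdca8. The whole windows of Pttg1, Cdca3 and Cdca8 thus fall within the gene, and Cdca3 and Cdca8 are counted as holding both motifs. The printed stretch of Bub3 also lies almost wholly within its gene. That of Cdca5 lies mostly within its gene, and so do the CHRs marked in it. A match describes the letters of the window, and a window without one says nothing about binding of a factor.

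**Figure D1:**
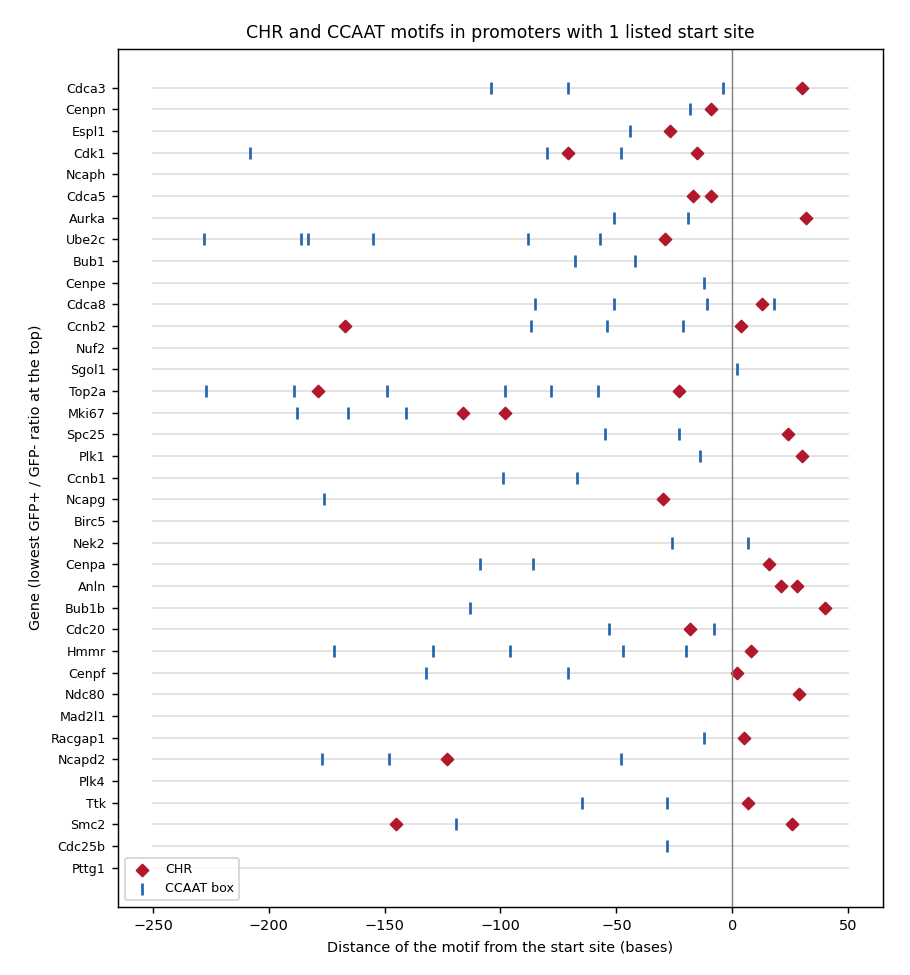
Each line is the promoter window of 1 of 37 members with a single listed start site, ordered from the lowest to the highest ratio of GFP+ to GFP- HSCs, with the distance from the start site in bases on the x axis. Red diamonds mark the first base of a CHR and blue ticks that of a CCAAT box, and the line of Pttg1 at the bottom holds neither.

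The median log2 ratio of GFP+ to GFP- HSCs was -0.62 in the 28 members with a CHR and -0.59 in the 13 without. For GFP- HSCs against MPPs it was -1.22 with a CHR and -1.18 without. For GFP+ HSCs against MPPs it was -1.82 with a CHR and -1.89 without. Between the HSC fractions the median was -0.63 in the 32 members with a CCAAT box and -0.51 in the 9 without. Relative to MPPs, GFP- HSCs had a median of -1.25 with a CCAAT box and -1.15 without, and GFP+ HSCs had -1.91 with and -1.63 without. These differences between members were not tested. The 6 members with neither motif in the window were spread widely between the HSC fractions. Their log2 ratios were -0.81 for Ncaph, -0.69 for Nuf2, -0.58 for Birc5, -0.47 for Mad2l1, -0.42 for Plk4 and -0.0048 for Pttg1.

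GFP+ and GFP- HSCs came from a single stem cell gate, and comparing them asked what the reporter separates within it. The mitotic genes were lower in GFP+ HSCs almost without exception, by a similar and moderate factor. All 50 were lower, although Pttg1 turned slightly positive when a trend with abundance (0.0027) or with transcript length and GC content (0.0495) was removed. At least 1.5-fold lower were 25 members, and 0 were at least 2-fold lower. Among all 11951 genes past the filter, 47.8% were lower, 3.05% were at least 1.5-fold lower and 0.870% were at least 2-fold lower. The median log2 ratio of the members was -0.59, a 1.5-fold difference, against 0.01 over all genes. In bulk libraries such as these, fewer dividing cells, less RNA per dividing cell and a different mix of cells in the 2 fractions cannot be told apart. The middle 50% of members lay between -0.71 and -0.47, and the whole range ran from -0.89 for Cdca3 to -0.0048 for Pttg1.

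**Figure D2:**
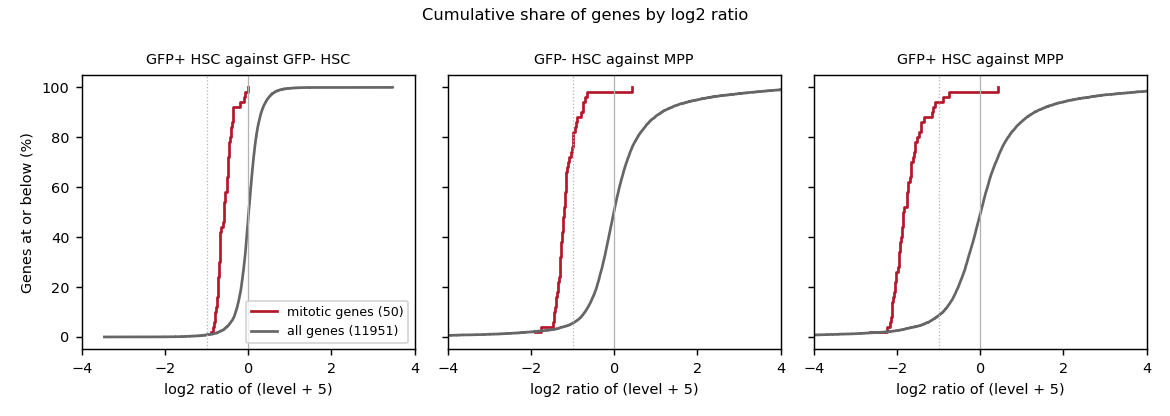
Each panel shows, for 1 comparison, the cumulative percentage of genes (y axis) at or below a log2 ratio of level + 5 (x axis), in red for the 50 mitotic genes and in grey for all 11951 genes. The dotted line marks a 2-fold lower level, and the red curve reaches its middle at -0.59, -1.21 and -1.84 while the grey one does so near 0.

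GFP- HSCs and MPPs lie in different gates, and in both the reporter was off. Of the 50 members, 49 were lower in GFP- HSCs, all 49 by 1.5-fold or more and 40 by 2-fold or more. Among all genes 50.6% were lower, 13.4% were at least 1.5-fold lower and 5.53% were at least 2-fold lower. The member median was -1.21 on the log2 scale, a 2.32-fold difference, and the median over all genes was -0.01. The single member that was higher was Pttg1, at a log2 ratio of 0.43. By role, the median ran from -1.37 in the 4 passenger genes to -1.09 in the 5 spindle and cytokinesis genes, and 11 of the 13 entry genes were lower by 2-fold or more.

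GFP+ HSCs against MPPs gave the widest separation. Again 49 members were lower in GFP+ HSCs, all 49 by 1.5-fold or more and 47 by 2-fold or more, against 49.2%, 18.0% and 8.61% of all genes. The member median was -1.84, a 3.59-fold difference, against 0.01 over all genes. The 2 lower members short of 2-fold were Bub3 and Cdc25b. The 3 comparisons share libraries with each other, so they are not separate lines of support. Summed over the members, the level was 72601 in GFP+ HSCs, 105941 in GFP- HSCs and 233426 in MPPs, or 0.287% of the summed level of all genes in GFP+ HSCs, 0.417% in GFP- HSCs and 0.875% in MPPs.

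**Figure D3:**
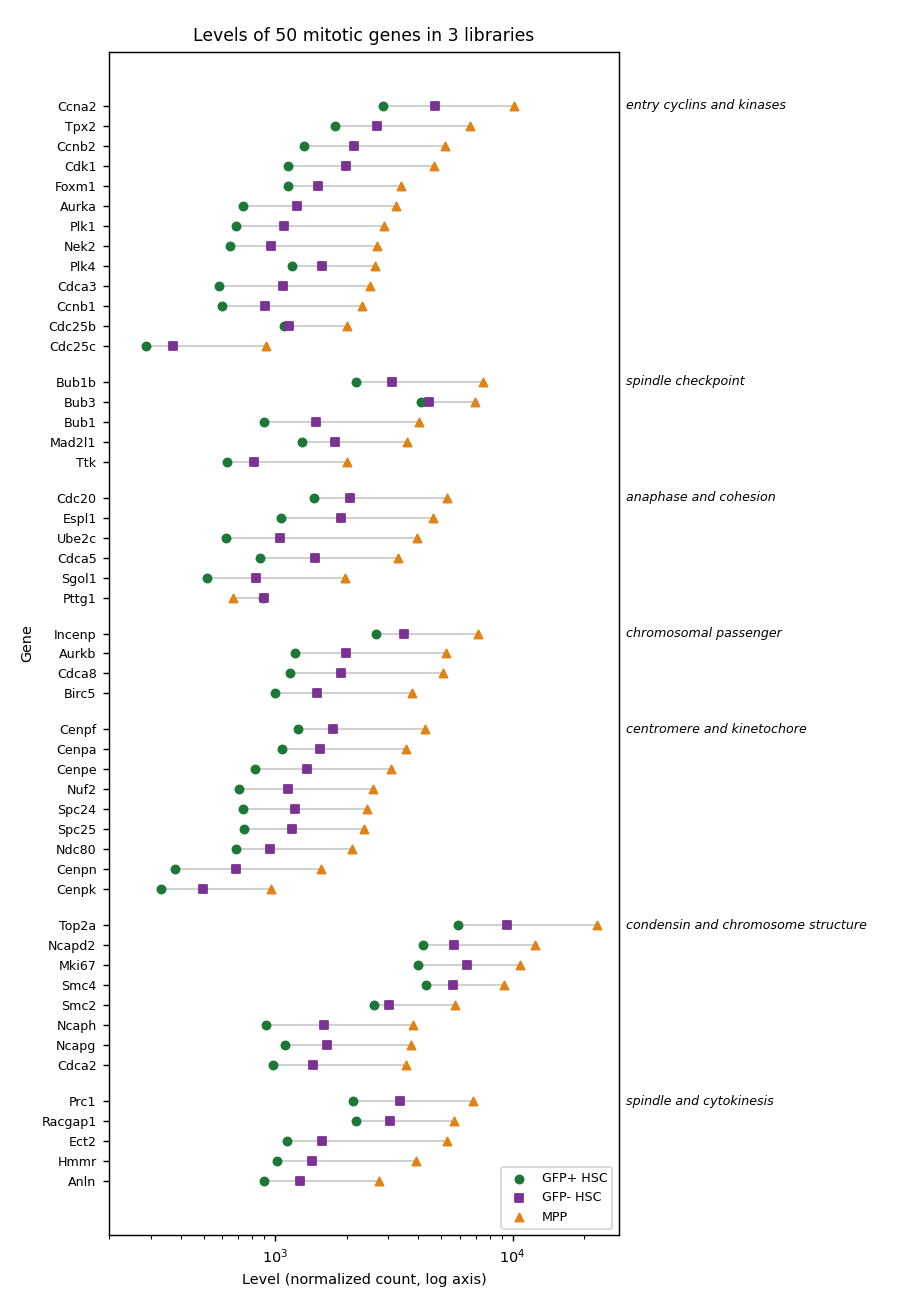
Levels of the 50 members (normalized counts, log axis) in GFP+ HSCs (green circles), GFP- HSCs (purple squares) and MPPs (orange triangles), grouped by role. In every row but that of Pttg1 the circle lies left of the square and the square left of the triangle, and in Pttg1 the circle at 891 is hidden behind the square at 894.

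Among the cyclins and kinases that start mitosis, Cdk1, the kinase at its centre, stood at 1135 in GFP+ HSCs, 1994 in GFP- HSCs and 4673 in MPPs. It was 1.76-fold lower in GFP+ than in GFP- HSCs, and 4.12-fold lower than in MPPs. Its partner Ccnb1, cyclin B1, stood at 598 in GFP+ HSCs, 908 in GFP- HSCs and 2315 in MPPs, and Ccnb2, cyclin B2, stood at 1321 in GFP+ HSCs, 2142 in GFP- HSCs and 5214 in MPPs. The B cyclins kept their proportion: per kilobase of transcript, Ccnb2 made up 78.2% of their sum in GFP+ HSCs, 79.3% in GFP- HSCs and 78.5% in MPPs. Ccna2, cyclin A2, which acts from S phase into early mitosis, stood at 2849 in GFP+ HSCs, 4725 in GFP- HSCs and 10177 in MPPs.

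Cdca3, which promotes mitotic entry by helping to destroy the Cdk1 inhibitor Wee1, had the lowest ratio of GFP+ to GFP- HSCs of all members, at 581 in GFP+ HSCs against 1083 in GFP- HSCs (1.86-fold lower), and stood at 2517 in MPPs. Its log2 ratio of -0.89 was the 129th lowest of the 11951 genes. Aurka, the Aurora A kinase of the spindle poles, stood at 730 in GFP+ HSCs, 1230 in GFP- HSCs and 3221 in MPPs. Plk1, the polo-like kinase needed at nearly every step of mitosis, stood at 681 in GFP+ HSCs, 1085 in GFP- HSCs and 2867 in MPPs, and Nek2, a kinase of centrosome separation, at 646 in GFP+ HSCs, 960 in GFP- HSCs and 2689 in MPPs. All 3 kinases were 1.49-fold to 1.68-fold lower in GFP+ than in GFP- HSCs. Plk4, which starts centriole duplication in S phase rather than acting in mitosis itself, was closer, at 1174 in GFP+ HSCs, 1569 in GFP- HSCs and 2631 in MPPs. Foxm1, a transcription factor of the G2 and M phase genes, stood at 1135 in GFP+ HSCs, 1521 in GFP- HSCs and 3390 in MPPs, and its log2 ratio of -0.42 for GFP+ against GFP- HSCs was smaller in size than the member median. Tpx2, which activates and targets Aurora A, stood at 1792 in GFP+ HSCs, 2683 in GFP- HSCs and 6639 in MPPs.

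The phosphatases that activate Cdk1 differed from each other. Cdc25b, the form that acts first at the centrosome, had a level of 1085 in GFP+ HSCs, 1148 in GFP- HSCs, a difference of 1.06-fold, and 2016 in MPPs. Cdc25c stood at 285 in GFP+ HSCs, 371 in GFP- HSCs and 917 in MPPs and was 2.47-fold lower in GFP- HSCs than in MPPs, against 1.76-fold for Cdc25b. Per kilobase of transcript, Cdc25b made up 70.6% of the sum of both in GFP+ HSCs, 66.1% in GFP- HSCs and 58.1% in MPPs. In the whole group of 13 entry genes the median ratio between the HSC fractions was -0.60, and 7 genes were lower by 1.5-fold or more.

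**Figure D4:**
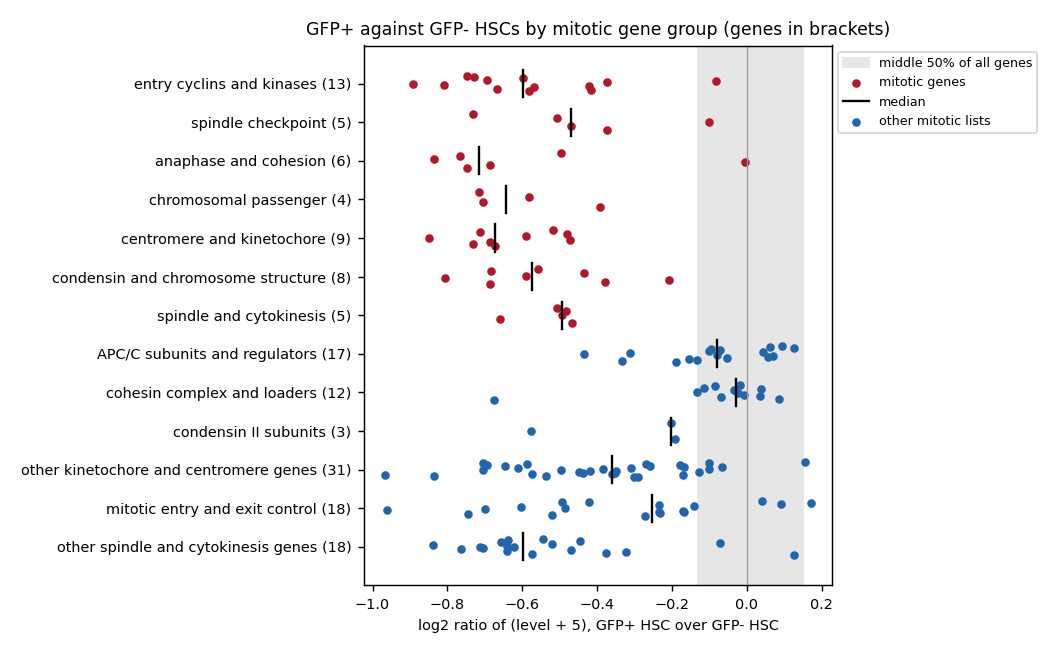
Log2 ratios of GFP+ to GFP- HSCs (x axis, on level + 5) for the members by role (red) and for 6 lists of other mitotic genes (blue), with 1 point per gene, black bars at the medians and the middle 50% of all genes shaded. Role medians of the members lie between -0.72 and -0.47, whereas the APC/C and cohesin lists have medians of -0.08 and -0.03 inside the shaded band.

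The spindle checkpoint held a member that stood nearly level. Bub3, an adaptor that docks Bub1 and BubR1 at kinetochores, stood at 4123 in GFP+ HSCs, 4426 in GFP- HSCs and 6970 in MPPs. Its log2 ratio was -0.10 between the HSC fractions and -0.65 for GFP- HSCs against MPPs. Bub1b, which encodes BubR1, stood at 2189 in GFP+ HSCs, 3112 in GFP- HSCs and 7469 in MPPs, and the kinase gene Bub1 at 894 in GFP+ HSCs, 1487 in GFP- HSCs and 4041 in MPPs. Bub1 was the member of the checkpoint farthest apart, 1.66-fold lower in GFP+ than in GFP- HSCs and 4.52-fold lower than in MPPs. Ttk, the Mps1 kinase that starts checkpoint signalling, stood at 627 in GFP+ HSCs, 813 in GFP- HSCs and 2007 in MPPs, and Mad2l1, which encodes the Cdc20 inhibitor Mad2, at 1293 in GFP+ HSCs, 1793 in GFP- HSCs and 3597 in MPPs. Bub3 is one of the members whose promoter stretch holds a CHR and CCAAT boxes, as that of Ube2c does.

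The genes of anaphase and cohesion held both extremes of the whole set. Ube2c, which encodes the ubiquitin-conjugating enzyme of the APC/C, stood at 620 in GFP+ HSCs, 1044 in GFP- HSCs and 3942 in MPPs. It had the lowest ratio of all members in both comparisons with MPPs, at 6.36-fold lower in GFP+ HSCs and 3.78-fold lower in GFP- HSCs. Pttg1, which encodes securin, the inhibitor of separase and a target of the APC/C, stood at 891 in GFP+ HSCs, 894 in GFP- HSCs and 664 in MPPs. Relative to MPPs its level was thus higher, by 1.34-fold in GFP+ HSCs and 1.35-fold in GFP- HSCs, the reverse of every other member. Espl1, which encodes separase itself, was low, at 1058 in GFP+ HSCs, 1892 in GFP- HSCs and 4612 in MPPs. Per kilobase of transcript, Pttg1 made up 77.0% of the sum of Pttg1 and Espl1 in GFP+ HSCs, 65.3% in GFP- HSCs and 36.4% in MPPs. Pttg1 lies on chromosome 11 from 43420250 to 43426251 and Ube2c on chromosome 2 from 164769898 to 164778822 (GRCm38, GENCODE M21).

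Cdc20, the APC/C activator that the checkpoint holds in check, stood at 1462 in GFP+ HSCs, 2064 in GFP- HSCs and 5317 in MPPs. Cdca5, which encodes sororin, a protector of cohesin, stood at 860 in GFP+ HSCs, 1466 in GFP- HSCs and 3284 in MPPs and was 1.70-fold lower in GFP+ than in GFP- HSCs. Sgol1, now called Sgo1, which encodes the shugoshin that guards centromeric cohesin, stood at 514 in GFP+ HSCs, 830 in GFP- HSCs and 1962 in MPPs. Apart from Pttg1, the 5 genes of this group were lower in every comparison, and the group median of -0.72 between the HSC fractions was the lowest of the 7 role groups. The groups hold 4 to 13 genes each, and no difference between them was tested.

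**Figure D5:**
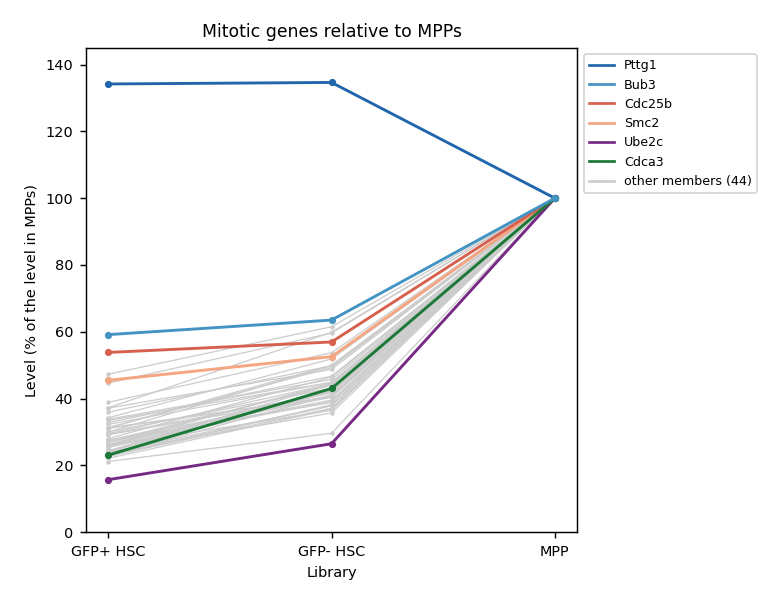
Level of each member in GFP+ and GFP- HSCs as a percentage of its level in MPPs (y axis, MPPs set to 100), with 1 line per gene and 6 genes in colour. Ube2c lies lowest, at 15.7% in GFP+ HSCs and 26.5% in GFP- HSCs. Pttg1 lies above 100, at 134% in GFP+ HSCs and 135% in GFP- HSCs. The lines of Bub3 and Cdc25b are nearly flat between the HSC fractions, and that of Smc2 runs from 45.5% in GFP+ HSCs to 52.6% in GFP- HSCs.

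The chromosomal passenger complex, which corrects faulty attachments and later guides cytokinesis, was lower in all 4 members. Its kinase gene Aurkb stood at 1212 in GFP+ HSCs, 1994 in GFP- HSCs and 5265 in MPPs, and Cdca8, which encodes borealin, at 1157 in GFP+ HSCs, 1888 in GFP- HSCs and 5085 in MPPs. Both were 1.63-fold to 1.65-fold lower in GFP+ than in GFP- HSCs. Birc5, which encodes survivin, stood at 999 in GFP+ HSCs, 1498 in GFP- HSCs and 3786 in MPPs. Incenp, the scaffold of the complex, differed less, at 2649 in GFP+ HSCs, 3476 in GFP- HSCs and 7133 in MPPs (1.31-fold between the fractions). Per kilobase of transcript, Incenp made up 33.4% of the summed complex in GFP+ HSCs, 29.0% in GFP- HSCs and 24.0% in MPPs.

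No centromere or kinetochore member stood level. All 9 were lower in GFP+ than in GFP- HSCs, with ratios between -0.85 and -0.47 and a median of -0.67, and 6 were at least 1.5-fold lower. Against MPPs the GFP- HSC ratios lay between -1.29 and -0.94. Cenpn, which recognizes the centromeric nucleosome, had the lowest ratio between the fractions, at 379 in GFP+ HSCs, 687 in GFP- HSCs and 1556 in MPPs (1.81-fold lower in GFP+ than in GFP- HSCs). Cenpa, the centromeric histone variant itself, stood at 1072 in GFP+ HSCs, 1538 in GFP- HSCs and 3570 in MPPs. Ndc80, the microtubule-binding subunit of the complex of the same name, stood at 682 in GFP+ HSCs, 948 in GFP- HSCs and 2114 in MPPs.

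The other subunits of the Ndc80 complex had lower ratios than Ndc80 itself. The log2 ratio of GFP+ to GFP- HSCs was -0.69 for Nuf2, -0.73 for Spc24 and -0.67 for Spc25, against -0.47 for Ndc80. Of these subunits Ndc80 alone has similar transcribed pseudogenes, so its level and its share are less certain. They are 2700099C18Rik (92.7% identity over 34.4% of the transcript) and Gm43812 (94.0% over 26.3%). The level of 2700099C18Rik was 161 in GFP+ HSCs, 256 in GFP- HSCs and 412 in MPPs. Per kilobase, Spc25 made up 31.9% of the summed complex in GFP+ HSCs, 32.3% in GFP- HSCs and 30.8% in MPPs, and Ndc80 made up 20.5% in GFP+ HSCs, 18.0% in GFP- HSCs and 19.2% in MPPs. Cenpe, a kinesin that brings chromosomes to the spindle equator, stood at 826 in GFP+ HSCs, 1357 in GFP- HSCs and 3076 in MPPs. Cenpf and Cenpk completed the group, with log2 ratios of -0.48 and -0.59 between the HSC fractions.

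Condensin and chromosome structure genes were divided. The kleisin subunit of condensin I, Ncaph, stood at 918 in GFP+ HSCs, 1610 in GFP- HSCs and 3818 in MPPs (1.75-fold between the fractions). The core ATPase subunits Smc2 and Smc4, which condensin I shares with condensin II, differed less. Smc2 stood at 2597 in GFP+ HSCs, 3002 in GFP- HSCs and 5712 in MPPs, and Smc4 at 4330 in GFP+ HSCs, 5631 in GFP- HSCs and 9156 in MPPs. Per kilobase of transcript, Smc4 made up 33.1% of summed condensin I in GFP+ HSCs, 31.6% in GFP- HSCs and 25.6% in MPPs, whereas Ncaph made up 11.3% in GFP+ HSCs, 14.5% in GFP- HSCs and 17.1% in MPPs. Ncapd2 and Ncapg lay between, at 1.35-fold and 1.51-fold lower in GFP+ than in GFP- HSCs.

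Top2a, the topoisomerase that untangles sister chromatids, stood at 5874 in GFP+ HSCs, 9450 in GFP- HSCs and 22601 in MPPs, 1.61-fold lower in GFP+ than in GFP- HSCs. Mki67, which encodes the proliferation marker Ki-67 that coats mitotic chromosomes, stood at 3990 in GFP+ HSCs, 6410 in GFP- HSCs and 10712 in MPPs. Its difference lay more between the HSC fractions and less against MPPs than that of most members: it was 1.61-fold lower in GFP+ than in GFP- HSCs, and 1.67-fold lower in GFP- HSCs than in MPPs, where the member median was 2.32-fold. Cdca2, a chromatin targeting subunit of protein phosphatase 1, stood at 982 in GFP+ HSCs, 1449 in GFP- HSCs and 3560 in MPPs.

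Among spindle and cytokinesis genes, Ect2, which activates RhoA at the cell equator, stood at 1124 in GFP+ HSCs, 1573 in GFP- HSCs and 5311 in MPPs. It was 4.73-fold lower in GFP+ HSCs than in MPPs, although the fractions differed by only 1.40-fold. Its partner Racgap1 differed less, at 2193 in GFP+ HSCs, 3031 in GFP- HSCs and 5640 in MPPs. Hmmr, a spindle assembly factor that is also a hyaluronan receptor, stood at 1018 in GFP+ HSCs, 1435 in GFP- HSCs and 3935 in MPPs, and Anln, which encodes the contractile ring protein anillin, at 897 in GFP+ HSCs, 1277 in GFP- HSCs and 2733 in MPPs. Prc1, which bundles microtubules of the central spindle, stood at 2119 in GFP+ HSCs, 3348 in GFP- HSCs and 6789 in MPPs. Of these 5 genes Prc1 alone passed 1.5-fold between the HSC fractions.

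A further 100 genes of the same processes that are not members were counted in 6 lists, and 99 passed the level filter. The exception was Cks2, a Cdk1-binding subunit, at 18 in GFP+ HSCs, 33 in GFP- HSCs and 78 in MPPs. Of the 99, 85 were lower in GFP+ than in GFP- HSCs, against 47.8% of all genes, with a median of -0.29. In that comparison 22 were at least 1.5-fold lower, against 3.05% of all genes, and 0 were at least 1.5-fold higher, against 2.50%. Between GFP- HSCs and MPPs, 89 were lower in GFP- HSCs, 25 of them by 2-fold or more, against 50.6% and 5.53% of all genes, with a median of -0.58. These lists were chosen with earlier results of these data known, so their shares are not independent support for the member result. The lists were far from uniform.

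The 18 spindle and cytokinesis genes outside the member set had a median of -0.60 between the HSC fractions and -1.16 for GFP- HSCs against MPPs. Gtse1, a microtubule-binding protein of G2 and mitosis, stood at 367 in GFP+ HSCs, 660 in GFP- HSCs and 1660 in MPPs, and Cit, the citron kinase of the midbody, at 680 in GFP+ HSCs, 1159 in GFP- HSCs and 2357 in MPPs. Ckap5, a microtubule polymerase, was nearly level between the fractions at 4536 in GFP+ HSCs and 4768 in GFP- HSCs, with 7584 in MPPs, and Numa1, a spindle pole protein that is also part of the interphase nucleus, was slightly higher, at 16019 in GFP+ HSCs against 14681 in GFP- HSCs and 13575 in MPPs. The 31 other kinetochore and centromere genes had a median of -0.36, with 30 lower in GFP+ than in GFP- HSCs. Ska1 and Ska3, subunits of a complex that couples kinetochores to microtubules, were lowest, at 209 in GFP+ HSCs, 413 in GFP- HSCs and 907 in MPPs for Ska1 and at 421 in GFP+ HSCs, 755 in GFP- HSCs and 1517 in MPPs for Ska3. Cenpb, which binds centromeric satellite DNA, was the only one higher, at 1623 in GFP+ HSCs, 1457 in GFP- HSCs and 1456 in MPPs, and Cenpt stood at 1211 in GFP+ HSCs, 1269 in GFP- HSCs and 902 in MPPs.

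The 17 genes of APC/C subunits and regulators had a median of -0.08 between the HSC fractions, and 11 were lower in GFP+ HSCs. Between GFP- HSCs and MPPs all 17 were lower in GFP- HSCs, with a median of -0.34, and 0 of them by 2-fold or more. The core subunit genes Anapc1 and Anapc4 stood at 9761 and 2944 in GFP+ HSCs, 9137 and 2697 in GFP- HSCs, and 9390 and 2733 in MPPs. In the same list Fbxo5, which encodes the APC/C inhibitor Emi1, stood at 1007 in GFP+ HSCs, 1270 in GFP- HSCs and 2444 in MPPs, and Anapc15 stood at 219 in GFP+ HSCs, 298 in GFP- HSCs and 459 in MPPs. The 12 cohesin genes had a median of -0.03 between the HSC fractions and of -0.16 for GFP- HSCs against MPPs. Farthest apart was Esco2, the S phase acetyltransferase of cohesin, at 729 in GFP+ HSCs, 1167 in GFP- HSCs and 1893 in MPPs, whereas its relative Esco1 stood at 2418 in GFP+ HSCs, 2276 in GFP- HSCs and 1678 in MPPs. Wapal, which releases cohesin, stood at 5038 in GFP+ HSCs, 5525 in GFP- HSCs and 5150 in MPPs, and Stag1, a cohesin subunit gene, at 4135 in GFP+ HSCs, 4024 in GFP- HSCs and 4542 in MPPs.

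The 3 genes of condensin II, the form present in the nucleus throughout the cell cycle, were lower in GFP+ than in GFP- HSCs, with log2 ratios of -0.58 for Ncapg2, -0.20 for Ncapd3 and -0.19 for Ncaph2. Ncapg2 stood at 1717 in GFP+ HSCs, 2563 in GFP- HSCs and 4344 in MPPs, Ncapd3 at 3251 in GFP+ HSCs, 3744 in GFP- HSCs and 4723 in MPPs, and Ncaph2 at 4897 in GFP+ HSCs, 5591 in GFP- HSCs and 7422 in MPPs. The 18 entry and exit genes had a median of -0.25. Mybl2, which encodes B-Myb, the partner of MuvB at CHR promoters, stood at 350 in GFP+ HSCs, 686 in GFP- HSCs and 1501 in MPPs, and the mitotic kinase gene Pbk at 1359 in GFP+ HSCs, 2281 in GFP- HSCs and 4454 in MPPs. Ensa and Arpp19, related inhibitors of the phosphatase PP2A that the Greatwall kinase switches on, were at the other end, at 4553 and 3022 in GFP+ HSCs, 4044 and 2834 in GFP- HSCs, and 3412 and 3495 in MPPs.

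The library chemistry does not mark strand, and 11 members have exons that overlap exons of a gene on the opposite strand. For Ube2c the overlap with Tnnc2 covered 22.8% of its exon bases, but Tnnc2 was listed at 0 in GFP+ HSCs, 1 in GFP- HSCs and 2 in MPPs. For Ccna2 the overlap with Exosc9 covered 12.5%, with Exosc9 at 1330 in GFP+ HSCs, 1834 in GFP- HSCs and 3090 in MPPs. For Ncapg the overlap with Lcorl covered 13.4%, with Lcorl at 912 in GFP+ HSCs, 917 in GFP- HSCs and 1029 in MPPs. For Prc1 the overlap with Rccd1 covered 11.1%, with Rccd1 at 768 in GFP+ HSCs, 609 in GFP- HSCs and 604 in MPPs. For Cdc25c the overlap with Gm3550, which has no listed level, covered 12.7%. Reads of such pairs cannot be told apart in the shared stretch. Matches of at least 90% identity over at least 20% of the transcript were found for 9 members. For Prc1 the match was Rccd1, the overlapping gene named above, and not a copy elsewhere. The other members had pseudogenes. They were Ndc80, Ccnb1 (up to 99.2% identity over 51.7% of the transcript), Cdc20, Plk1, Plk4 (94.1% over 40.5%), Sgol1 (92.9% over 42.8%), Bub3 (92.9% over 22.9%) and Ube2c (93.8% identity). The levels of those members are uncertain to the extent that the counting divided reads between copies. No such copy was found for Pttg1 or Cdc25b.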

How the data were processed

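RNA of 3 sorted mouse bone marrow populations was sequenced, 1 library each. TRIzol and PicoPure were used for RNA and SMART-seq v4 for cDNA, per the labels' protocols; that kit copies full-length transcripts by PCR without molecular identifiers. The submitters' processing notes name STAR, DESeq2 and mm10, and the sources used here do not state versions, annotation or counting tool. The authors deposited normalized counts held as whole numbers, treated here as a score because size factors are not given; depth per library is therefore unknown, and all 23420 rows were whole. Column names neg and pos were read as GFP- and GFP+ HSCs. The 27 rows with a date in place of a symbol (0.212% of summed levels) were left out.

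Log2 ratios were taken of level + 5, which slightly understates differences, for the 11951 genes with a mean of at least 50. Folds of single genes are ratios of levels, and folds of sets are medians turned back. Genes were called by fixed rules (lower, 1.5-fold, 2-fold), with no test. The members and lists were chosen with earlier results of these data known. Levels in all libraries were given for the 8 lowest and 8 highest members of each comparison and 12 well known ones, and for the 2 lowest and 2 highest of each other list; further members complete their role groups. Per kilobase values used the longest protein-coding GENCODE M21 transcript of a gene, which may not be the one these cells use. The alternatives tried were a pseudocount of 1 or 20, a minimum mean of 10, of 200 or no minimum, rescaling to equal totals or upper quartiles, removal of trends with abundance or with transcript length and GC content, means in place of medians, and a motif window of 150 bases. The calculation was tested on simulated data. Similar copies were sought with BLAST+ 2.17.0. Python 3.11.15, numpy 2.4.6, pandas 2.3.3 and statsmodels 0.14.6 were used.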

Additional observations from a re-analysis of the deposited data

How the results depend on the processing

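Each count of lower members and each member median was recomputed under the 9 alternatives for pseudocount, level filter, scaling and trends, and each median also as a mean. No member median changed sign, and Pttg1 between the HSC fractions was the single member whose ratio did, at 0.0027 with the abundance trend removed and 0.0495 with the length and GC trend removed. For GFP+ against GFP- HSCs the median stayed between -0.60 and -0.57, 49 to 50 members were lower and 23 to 27 were at least 1.5-fold lower. For GFP- HSCs against MPPs the median lay between -1.22 and -1.13 and 34 to 41 members were at least 2-fold lower. For GFP+ HSCs against MPPs 46 to 47 members were at least 2-fold lower, and the median moved by more than 0.1 on the log2 scale in only 2 settings, to -1.73 with the abundance trend removed and to -1.73 as a mean over members. Recomputed ratios of single members moved by more than 0.1 in 71 cases, all of them in the comparisons with MPPs and under removal of a trend, and by less in the other 1279. In the last 150 bases of the promoter window 27 members held a CHR (65.9%) and 28 a CCAAT box (68.3%), against 28 and 32 in the whole window. Over all genes of the promoter table the shares in those 150 bases were 9.23% and 26.3%. Among the genes past the level filter they were 5.73% and 29.5%. No paired analysis was possible because each population has 1 library. With depth unknown and no replicates, the size of a difference that repeated sorts would give cannot be stated. Every ratio of a gene rests on single values, the small ones of Bub3 and Cdc25b between the HSC fractions and the larger ones alike.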
